A study of Arundo donax with 9 samples.

Results

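Chloride and anion channels of the leaf of *Arundo donax* (giant reed, a perennial grass) were gathered by the Swiss-Prot description of each unigene, the longest transcript of 1 cluster of assembled transcripts. Taken were the unigenes described as a chloride channel protein (CLC), an S-type anion channel or guard cell S-type anion channel (SLAC1 and its homologs SLAH), an aluminum-activated malate transporter (ALMT) or a cation-chloride cotransporter (CCC). These terms matched 119 of the 255855 unigenes listed, 49 of them CLC, 35 S-type, 31 ALMT and 4 CCC, under 16 protein names. The protein of the best match came from *Arabidopsis thaliana* for 115 unigenes and from rice for the 4 CCC unigenes, so a name gives the nearest reviewed protein and not a proven ortholog. A domain of the class was annotated in 103 of the 119 unigenes, which measured between 223 and 4695 bp with a median of 1729 bp.

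Chloride enters a leaf with the water drawn from saline soil, and plant cells either store it in the vacuole, move it between compartments or let it leave across the plasma membrane. CLC proteins are channels and proton-coupled exchangers of inner membranes, whereas SLAC/SLAH proteins are slow anion channels of the plasma membrane, which in guard cells are opened by abscisic acid (ABA) through SnRK2 protein kinases and release the anions whose loss closes the stomatal pore. ALMT proteins conduct malate and, in several cases, chloride or nitrate across the plasma membrane or the tonoplast, and CCC proteins carry chloride together with sodium and potassium. Roles named below were established in Arabidopsis unless another species is given.

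Leaf RNA was sequenced from 9 libraries, 3 of untreated plants (G2-CK, 0 mM NaCl), 3 of plants under severe salt stress (G2-S3, labelled 250 mM NaCl) and 3 of plants under extreme salt stress (G2-S4, labelled 420 mM NaCl). All plants belonged to 1 clone, G2, were raised from rhizomes in pots and received their salt with the weekly watering over a prolonged period, and the leaf collected was the third from the top, fully expanded and not senescing. The series states that the 3 libraries of a group were biological replicates, but a single genotype and a single leaf position limit what the groups represent.

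The libraries held between 23.0 and 25.7 M fitted reads (1 M is 1000000 reads). Unigenes at or under 0.3 FPKM (fragments per kilobase of unigene and 1000000 reads) were left out of each library's list, so that 177 of the 1071 values of the 119 unigenes were missing, and a missing value allowed a median of up to 8.80 reads. Of the 119 unigenes, 77 were listed in all 9 libraries and 101 had enough reads to be tested. Markers of leaf mesophyll (chlorophyll a-b binding proteins and the small chain of Rubisco) were abundant in the control libraries, with a summed level of 5818 to 6814 CPM (counts per 1000000 reads), but reached only 4660 to 5098 CPM in G2-S3 and 1811 to 2188 CPM in G2-S4, and 34 of their 53 tested unigenes were lower in G2-S4 than in G2-CK. In the opposite direction moved the guard cell markers, which summed to 59.9 to 65.2 CPM in G2-CK, 81.5 to 118 CPM in G2-S3 and 162 to 179 CPM in G2-S4, with 9 of 19 tested unigenes higher and 3 lower at the extreme dose. This rise in the sum was carried by KAT1, a potassium channel of guard cells, which went from a mean of 30.4 CPM in G2-CK to 141 CPM in G2-S4, and no unigene was described as MUTE, SPEECHLESS or MYB60. Of all tested unigenes, 14.2% were called higher and 13.8% lower in G2-S4 against G2-CK. In whole leaves, fewer cells of a type and less RNA per cell cannot be told apart, and the part of the cell type markers in the changes given below was not tested.

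Under extreme salt stress anion channel unigenes took a larger share of the leaf's reads than without salt. Most of the gain came from the S-type channels and the CLC proteins. CPM values are shares of the reads and do not give amounts of RNA per leaf. The 119 unigenes together took 534, 513 and 540 CPM in the 3 G2-CK libraries, 582, 602 and 604 CPM in G2-S3 and 978, 955 and 793 CPM in G2-S4, with means of 529 ± 13.9, 596 ± 12.5 and 909 ± 101 CPM (SD, n = 3). No library of 1 group reached into the range of another. The gain of 380 CPM from G2-CK to G2-S4 was made up of 218 CPM in S-type channels, 156 CPM in CLC proteins and 19.8 CPM in ALMT proteins, against a loss of 13.1 CPM in CCC.

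S-type channels summed to 93.5, 64.9 and 65.0 CPM in the G2-CK libraries, 91.5, 112 and 119 CPM in G2-S3 and 360, 309 and 208 CPM in G2-S4. The first G2-CK library lay within the G2-S3 values, and the G2-S4 libraries lay above all others. CLC proteins rose in steps that did not overlap, from 322, 315 and 338 CPM through 371, 367 and 364 CPM to 483, 501 and 458 CPM. ALMT proteins took 70.3, 88.1 and 89.3 CPM in G2-CK and overlapped with the 85.0, 87.0 and 80.0 CPM of G2-S3, but not with the 101, 113 and 94.1 CPM of G2-S4. CCC was the class whose level fell, with 47.8, 45.0 and 47.1 CPM in G2-CK, 33.9, 36.4 and 42.0 CPM in G2-S3 and 34.5, 33.0 and 33.1 CPM in G2-S4, and both salt groups lay under the controls. Of all reads on the 119 unigenes, the S-type share was 14.1% ± 3.00 (SD, n = 3) in G2-CK, 18.0% ± 2.02 in G2-S3 and 31.8% ± 5.31 in G2-S4, while the CCC share was 8.82% ± 0.12, 6.27% ± 0.59 and 3.72% ± 0.39. The totals are a description without a test, and the CLC totals depend on which unigenes are counted: with only those that carry a domain of the class, mean CLC levels were 262, 281 and 342 CPM, a smaller rise than with all.

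**Figure D1:**
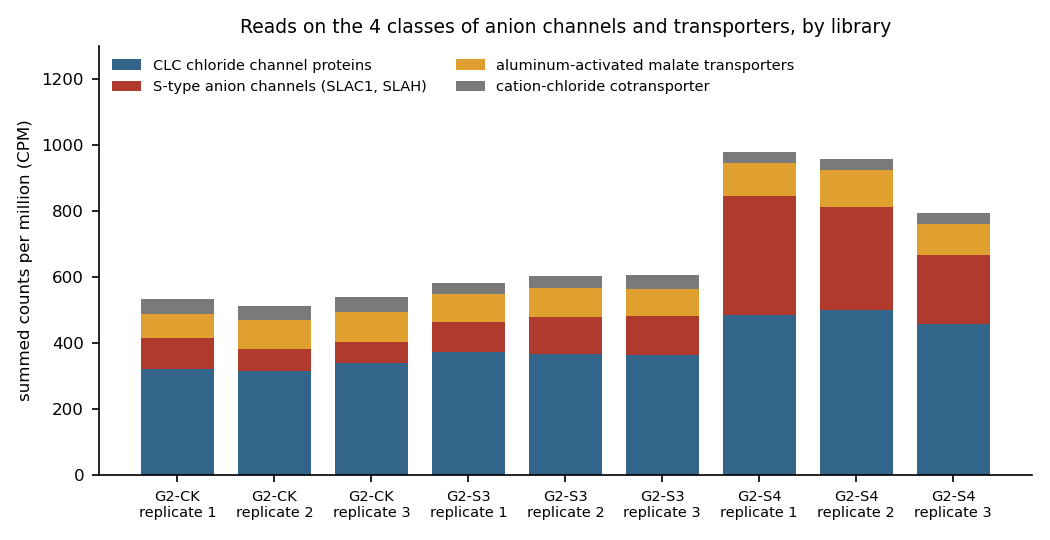
Summed level of the anion channel unigenes in each of the 9 libraries, as stacked bars in CPM (vertical axis from 0), with 1 colour per class. The S-type part reaches 208 to 360 CPM in G2-S4 against 64.9 to 93.5 CPM in G2-CK, whereas the CCC part is smaller in both salt groups.

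Unigene by unigene, 18 of the 101 tested members changed under severe salt stress, 13 up and 5 down (edgeR's quasi-likelihood test, Benjamini-Hochberg adjusted p under 0.05), where 5.73% of all 127554 tested unigenes were called (3.4% higher, 2.32% lower). Under extreme salt stress 36 members were up-regulated and 13 down-regulated against G2-CK, beside 28% called over all unigenes (14.2% higher, 13.8% lower). Between the doses, 25 members were higher and 3 lower in G2-S4 than in G2-S3, beside 14.1% over all unigenes (7.24% higher, 6.87% lower). The median log2 fold change of the members was 0.10, 0.36 and 0.36 in these comparisons, beside −0.001, −0.03 and −0.02 over all tested unigenes. The contrasts share their control or treated libraries and are not independent of each other. Of the members, 15 were called at both doses against G2-CK, 3 at the severe dose only and 34 at the extreme dose only, and each of the 15 kept its direction. The severe-dose counts depended on single libraries. The 13 up-regulated members fell to 3 without control library 2 and to 4 without control library 3. They fell to 5 without G2-S3 library 2 and to 6 without G2-S3 library 1. Over all unigenes the higher calls fell as well, from 4342 to 1259, 1691, 1723 and 1832 in the same order of runs.

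Of the 4 classes, S-type channels had the greatest share of up-regulated unigenes, with 15 of 28 tested unigenes up-regulated and 3 down-regulated in G2-S4 against G2-CK. Of the 45 tested CLC unigenes 15 were higher and 4 lower, of the 24 tested ALMT unigenes 6 were higher and 3 lower, and of the 4 CCC unigenes none was higher and 3 were lower in the same comparison. In G2-S3 the corresponding counts were 6 higher and 2 lower for S-type, 4 and 0 for CLC, 3 and 3 for ALMT, and 0 and 0 for CCC. No difference between classes was tested.

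Since the assembly spread most proteins over several unigenes, reads were also summed over all unigenes with the same protein name and fitted over all 12239 names. Of the 15 anion channel names tested, 7 changed in G2-S3 against G2-CK, 3 up and 4 down, beside 15.4% of all names (9.28% higher, 6.12% lower). In G2-S4 against G2-CK 10 names changed, 6 up and 4 down, beside 49.4% (25.9% higher, 23.5% lower), and in G2-S4 against G2-S3 8 names changed, 6 up and 2 down, beside 33.3% (16.8% higher, 16.5% lower).

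SLAH2 and SLAH3, plasma membrane channels that conduct nitrate and, in the case of SLAH3, chloride as well, were the names with the largest fold increases among those called higher under extreme salt stress, apart from ALMT6, which the controls did not list. SLAH2 took 27.2, 13.4 and 12.95 CPM in G2-CK, 34.2, 38.4 and 45.0 CPM in G2-S3 and 163, 139 and 75.2 CPM in G2-S4. The groups did not overlap, although the first control library stood above the other controls and the third G2-S4 library well under the other libraries of its group. The rise to G2-S4 was 7.05-fold (log2 fold change 2.82 ± 0.35, SE, adjusted p = 0.000212), and G2-S4 also exceeded G2-S3 (1.68, adjusted p = 0.00507). Against G2-CK the severe dose gave 1.13 ± 0.34 with an adjusted p of 0.0527 and was not called, but it was called without control library 1 (1.55, adjusted p = 0.0246) or without G2-S4 library 3 (1.14, adjusted p = 0.0287), and by DESeq2 (adjusted p = 0.00578). SLAH3 showed a similar course, with 41.3, 26.9 and 24.6 CPM in G2-CK, 42.8, 52.5 and 55.0 CPM in G2-S3 and 173, 146 and 108 CPM in G2-S4. Again no groups overlapped, the first control library coming next to the lowest G2-S3 library. SLAH3 was 4.60-fold higher in G2-S4 than in G2-CK (log2 fold change 2.20 ± 0.23, adjusted p = 7.81e-05) and higher than in G2-S3 (1.51, adjusted p = 0.00124), whereas its severe-dose change of 0.70 was called without control library 1 (0.93, adjusted p = 0.0292) or G2-S4 library 3 (0.70, adjusted p = 0.0481) and by DESeq2 (adjusted p = 0.0197) but not by edgeR with all libraries (adjusted p = 0.0648). The names are not sharply separated, because 16 of the 19 SLAH3 unigenes carried SLAH2 in their best match among non-redundant proteins.

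SLAC1, the main slow anion channel of guard cells, moved otherwise. Its 4 unigenes summed to 21.6, 21.7 and 24.9 CPM in G2-CK, 11.8, 14.6 and 16.3 CPM in G2-S3 and 22.8, 22.7 and 23.2 CPM in G2-S4. The G2-S3 libraries lay under all others, and the G2-S4 libraries fell within the control values. SLAC1 was thus lower under severe stress (log2 fold change −0.68 ± 0.12, adjusted p = 0.00947) and higher in G2-S4 than in G2-S3 (0.69, adjusted p = 0.00288), while G2-S4 against G2-CK gave 0.01 with a 95% confidence interval from −0.26 to 0.28. SLAH1, which does not conduct by itself and assembles with SLAH3 in roots, was represented by 1 unigene, Cluster-14027.66042, at 3.37, 2.89 and 2.57 CPM in G2-CK, 2.67, 6.61 and 2.28 CPM in G2-S3 and 1.08, 0.949 and 1.65 CPM in G2-S4. Its G2-S4 values were the lowest of all libraries, and 1 library of G2-S3 stood above the rest. The decrease to G2-S4 had a log2 fold change of −1.26 ± 0.43 (adjusted p = 0.035), but was lost when any 1 control library, G2-S4 library 1 or G2-S4 library 2 was left out (adjusted p from 0.0526 to 0.101). Against G2-S3 the fall was −1.64 (adjusted p = 0.0174), lost without G2-S4 library 1 (adjusted p = 0.0576) or 2 (adjusted p = 0.0632). These values are from the fit over names. In the fit over single unigenes the decrease from G2-CK to G2-S4 was −1.18 and was not called. That from G2-S3 to G2-S4 was −1.59 and was called.

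**Figure D2:**
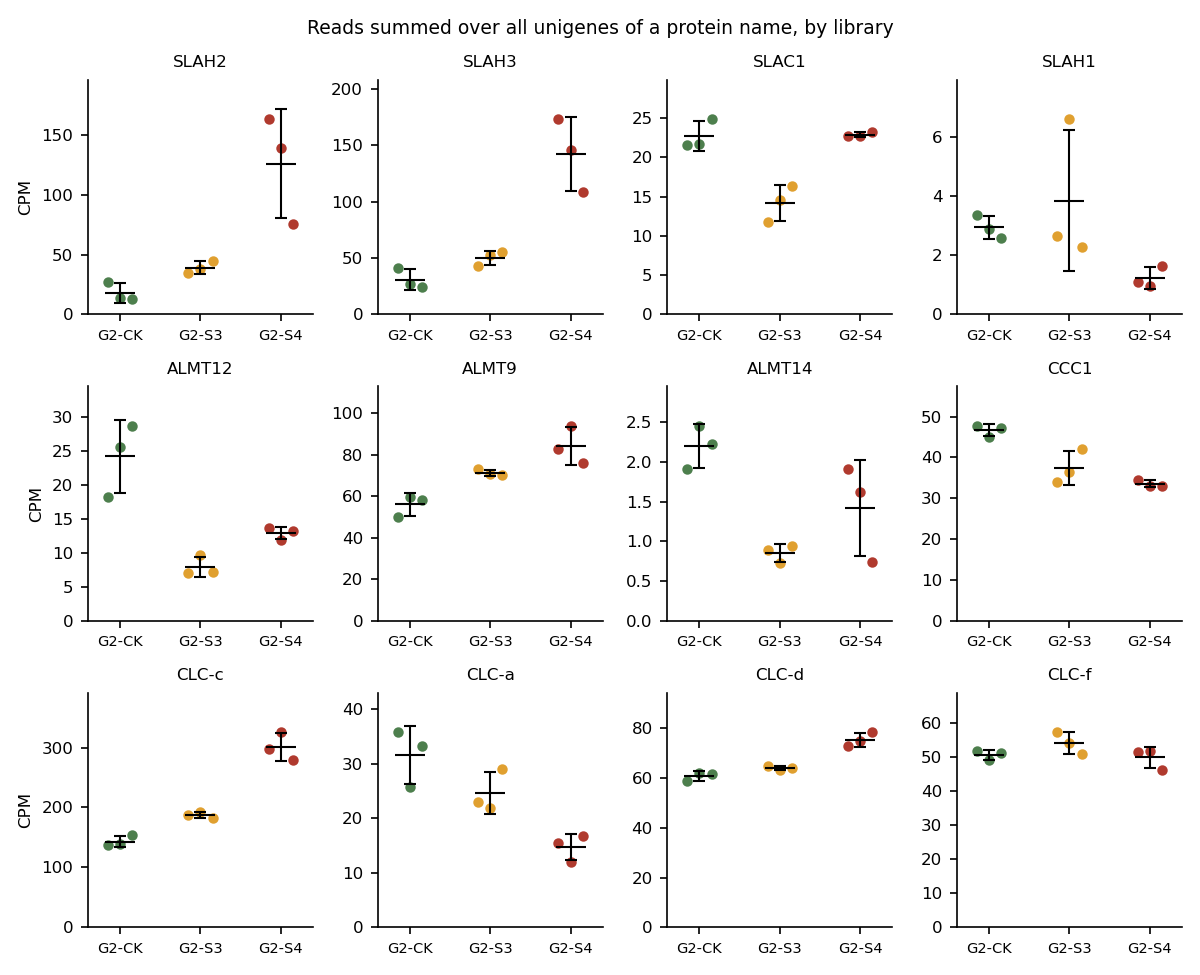
Level of 12 protein names in the 9 libraries, in CPM on a vertical axis of its own for each name, with points for libraries and bars for the mean ± SD of a group (n = 3). SLAH2 and SLAH3 are highest in G2-S4, SLAC1 and ALMT12 are lowest in G2-S3, and CLC-a and CCC1 are lowest in G2-S4.

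Within SLAH2, single unigenes went in opposite directions. Cluster-14027.141183 (1179 bp) stood at 4.75, 1.19 and 0.74 FPKM in G2-CK, 10.1, 10.2 and 11.3 FPKM in G2-S3 and 68.9, 55.5 and 23.2 FPKM in G2-S4. Its 3 groups were separate, and the G2-S4 values spread more widely than those of G2-S3. The log2 fold change to G2-S4 was 4.59 ± 0.60 (adjusted p = 0.000301), and that to G2-S3 was 2.29 (adjusted p = 0.0437), a call that was kept only without control library 1 or G2-S4 library 3 and reached an adjusted p of 0.176 without control library 2. Cluster-14027.141185 (1275 bp) had 3.00, 1.37 and 1.34 FPKM in G2-CK, 7.25, 9.84 and 9.58 FPKM in G2-S3 and 27.7, 24.3 and 18.1 FPKM in G2-S4. It rose by 2.27 in G2-S3 (log2, adjusted p = 0.00297) and by 3.74 in G2-S4 (adjusted p = 2.29e-05), again with no overlap. Cluster-14027.59544 (1382 bp) went from 1.54, 0.80 and 0.44 FPKM to 6.33, 6.97 and 8.65 FPKM in G2-S3 and 32.4, 24.7 and 14.2 FPKM in G2-S4 (log2 fold changes 3.01, adjusted p = 0.00323, and 4.79, adjusted p = 2.99e-05). Cluster-14027.34466 (764 bp), listed in 1 control library at 1.11 FPKM, had 6.42, 4.45 and 2.83 FPKM in G2-S3 and 29.3, 27.1 and 13.1 FPKM in G2-S4 (adjusted p = 5.67e-05 for G2-S4 against G2-CK). Cluster-14027.141936 (1211 bp) was unlisted in all controls and in 1 G2-S3 library, stood at 0.54 and 1.01 FPKM in the other G2-S3 libraries and at 3.06, 5.33 and 2.36 FPKM in G2-S4, at least 11.9-fold higher on average than the 0.3 FPKM up to which the controls were unlisted. Against these, Cluster-14027.121498 (1227 bp), the SLAH2 unigene with the largest share of reads in the controls, had 7.34, 5.86 and 6.98 FPKM in G2-CK, 2.38, 2.18 and 5.11 FPKM in G2-S3 and 2.74, 2.79 and 1.76 FPKM in G2-S4. Both salt groups lay under the controls, and the decrease to G2-S4 was called (log2 fold change −1.34, adjusted p = 0.00919). Its share of the SLAH2 reads was 38.5% in G2-CK, 7.6% in G2-S3 and 1.9% in G2-S4, while that of Cluster-14027.141183 was 9.5%, 24.5% and 34.4%. The shortest of the group, Cluster-14027.121495 (258 bp), for which reads are given since FPKM is inflated at this length, had 70, 22 and 16 reads in G2-CK, 61, 97 and 74 reads in G2-S3 and 257, 206 and 133 reads in G2-S4 (2.64 in G2-S4, adjusted p = 0.0021). In all, 7 of the 10 tested SLAH2 unigenes were higher and 2 lower in G2-S4 than in G2-CK, the second falling one being Cluster-14027.218717 (−1.49, adjusted p = 0.0386), whose call was lost in 6 of the 9 runs with 1 library left out, with an adjusted p of up to 0.139 without control library 1.

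The leading SLAH3 unigene by FPKM was Cluster-14027.121497 (1737 bp), with 7.02, 3.62 and 2.85 FPKM in G2-CK, 12.5, 12.8 and 21.0 FPKM in G2-S3 and 74.4, 56.5 and 31.3 FPKM in G2-S4. The groups were separate and rose from dose to dose, by 1.82 to G2-S3 (log2, adjusted p = 0.0228) and by 3.72 ± 0.41 to G2-S4 (adjusted p = 0.000108), the former being lost without control library 2 (adjusted p = 0.116) or 3 (adjusted p = 0.0957) or G2-S3 library 1 (adjusted p = 0.058) or 2 (adjusted p = 0.062). Its share of SLAH3 reads was 20.1% in G2-CK, 44.6% in G2-S3 and 54.7% in G2-S4. Another unigene, Cluster-14027.95266 (705 bp), dipped in between, with 6.57, 3.14 and 4.11 FPKM in G2-CK, 0.69, 1.23 and 2.62 FPKM in G2-S3 and 10.9, 19.96 and 12.9 FPKM in G2-S4. It was higher in G2-S4 than in G2-CK (1.78, adjusted p = 0.00732) and than in G2-S3 (3.32, adjusted p = 0.000999), and the lower level of G2-S3 against G2-CK was not called (−1.54, adjusted p = 0.078). Cluster-14027.141937 (1729 bp) was listed in 1 control library at 0.58 FPKM and was higher at both doses, with 3.49, 5.78 and 2.26 FPKM in G2-S3 and 3.61, 2.31 and 0.94 FPKM in G2-S4 (adjusted p = 0.00809 and 0.00509), the former call being lost without control library 2 (adjusted p = 0.0589) or 3 (adjusted p = 0.051). Cluster-14027.138476 (559 bp) was the SLAH3 unigene called lower, with 2.02, 4.80 and 2.80 FPKM in G2-CK against 1.04 FPKM, an unlisted value and 0.46 FPKM in G2-S3 (−2.32, adjusted p = 0.019), a call lost without control library 2 (adjusted p = 0.0733) or 3 (adjusted p = 0.0505) or G2-S3 library 2 (adjusted p = 0.083). With missing values at 0 in place of the listing limit, the severe-dose calls of Cluster-14027.121497 (adjusted p = 0.0712), Cluster-14027.141937 (0.0914) and Cluster-14027.138476 (0.251) were lost, as was the extreme-dose call of Cluster-14027.141937 (0.0514). In G2-S4 7 of the 13 tested SLAH3 unigenes were higher than in G2-CK and none was called lower.

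SLAC1 kept its extreme-dose sum while its unigenes diverged. Cluster-14027.129717 (1941 bp), which held 59.0% of the SLAC1 reads in G2-CK, had 8.49, 7.35 and 8.81 FPKM in G2-CK, 4.06, 5.14 and 5.91 FPKM in G2-S3 and 9.09, 8.04 and 8.58 FPKM in G2-S4. The G2-S3 libraries were the lowest, and the other groups overlapped. Its increase from G2-S3 to G2-S4 was called (0.85, adjusted p = 0.00409), whereas the decrease from G2-CK to G2-S3 (−0.65, adjusted p = 0.0305) was lost in 7 of the 9 runs with 1 library left out, with an adjusted p of up to 0.111 without G2-S3 library 1. Cluster-14027.243436 (2047 bp) declined from 1.85, 1.84 and 2.54 FPKM to 1.05, 1.08 and 1.05 FPKM in G2-S3 and 0.43, 0.91 and 0.49 FPKM in G2-S4 (−1.62 in G2-S4, adjusted p = 0.00233). Cluster-14027.60321 (1083 bp), singled out after its values were seen, went the other way, with 1.88, 1.32 and 0.90 FPKM in G2-CK, 1.46, 1.77 and 1.97 FPKM in G2-S3 and 3.18, 4.30 and 4.72 FPKM in G2-S4 (1.69 in G2-S4, adjusted p = 0.00186).

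**Figure D3:**
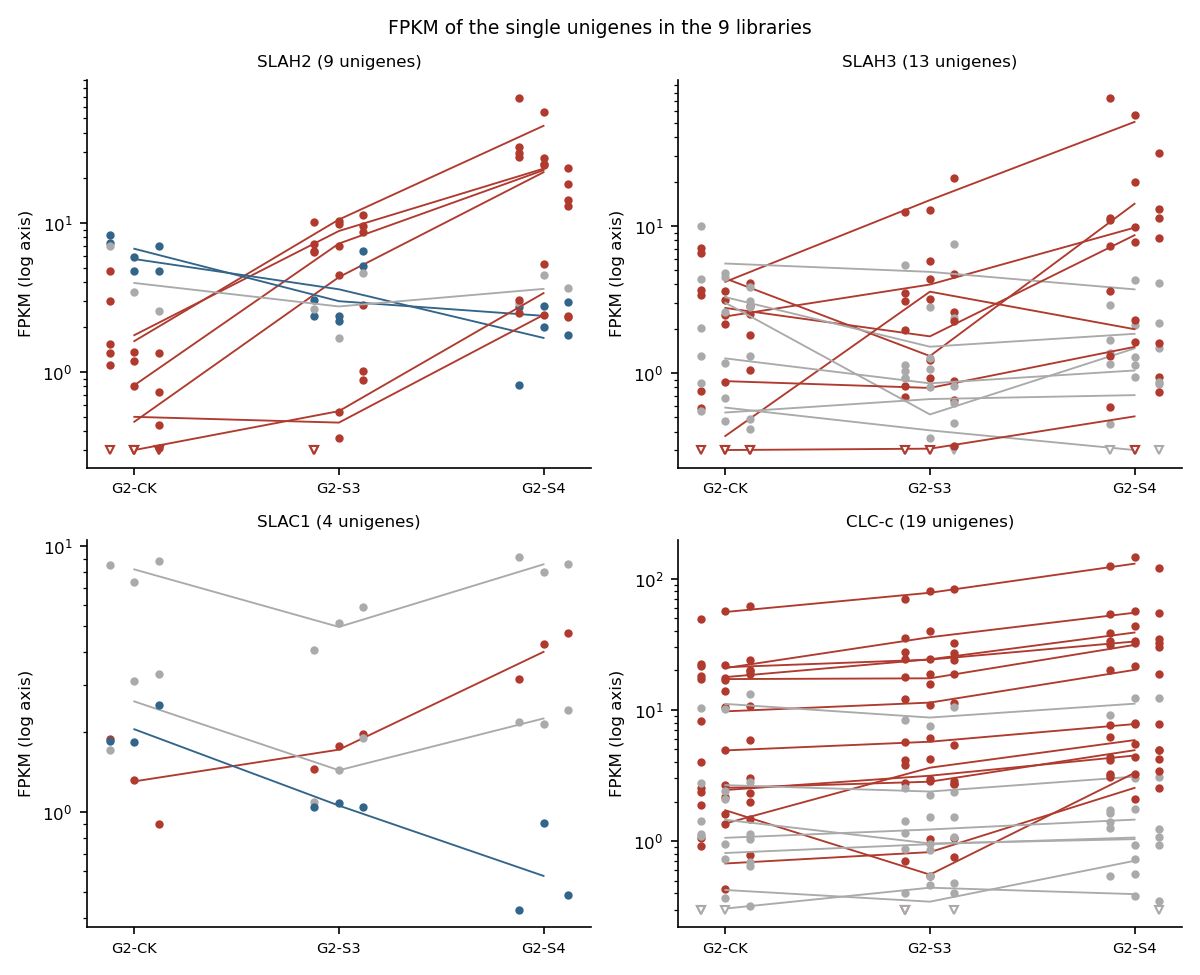
Level of each tested unigene of at least 300 bp named SLAH2, SLAH3, SLAC1 or CLC-c, in FPKM on a log axis, with points for libraries, lines joining the geometric means of the groups and open triangles at 0.3 FPKM for unlisted values. Red, blue and grey stand for unigenes higher, lower or not called in G2-S4 against G2-CK; SLAH2 and SLAC1 hold unigenes of both directions, CLC-c and SLAH3 only higher or uncalled ones.

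Among the malate transporters, ALMT12, the rapid (R-type) anion channel of guard cells, was lower in both salt groups. It took 18.3, 25.6 and 28.7 CPM in G2-CK, 7.05, 9.63 and 7.19 CPM in G2-S3 and 13.6, 11.9 and 13.2 CPM in G2-S4. All 3 groups were separate, and the severe dose gave the lowest values. The decrease was 3.04-fold in G2-S3 (log2 fold change −1.61 ± 0.18, adjusted p = 0.00169) and smaller in G2-S4 (−0.91 ± 0.18, adjusted p = 0.00275). The difference between the doses was 0.70 (adjusted p = 0.0184), lost without G2-S3 library 1 (adjusted p = 0.0648) or G2-S4 library 1 (adjusted p = 0.0589). The most abundant ALMT12 unigenes shared this course: Cluster-14027.236301 (1857 bp) had 5.15, 6.60 and 7.27 FPKM in G2-CK, 2.00, 2.84 and 1.73 FPKM in G2-S3 and 3.31, 3.04 and 3.76 FPKM in G2-S4, and Cluster-14027.39892 (1863 bp) was also lower at the severe dose (−1.58, adjusted p = 0.00617). None of the 6 tested ALMT12 unigenes was called higher against G2-CK. ALMT14, with 1 unigene of low level, had 1.91, 2.46 and 2.23 CPM in G2-CK, 0.892, 0.728 and 0.944 CPM in G2-S3 and 1.91, 1.62 and 0.742 CPM in G2-S4, so that the G2-S4 libraries spread over nearly the whole range. It was called lower in G2-S3 (−1.37, adjusted p = 0.0433), but the call was kept only without G2-S4 library 1 or 3 and reached an adjusted p of 0.143 without control library 2.

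ALMT9, a malate-activated chloride channel of the tonoplast, was the most abundant ALMT name and rose with salt. It had 49.9, 59.8 and 58.3 CPM in G2-CK, 72.9, 70.8 and 70.0 CPM in G2-S3 and 82.8, 93.9 and 75.7 CPM in G2-S4. Groups did not overlap, and ALMT9 was called higher in G2-S4 than in G2-CK (0.59 ± 0.10, adjusted p = 0.00106) but not than in G2-S3 (0.24, adjusted p = 0.0873). The increase in G2-S3 (0.35 ± 0.10, adjusted p = 0.0423) was kept in the runs with 1 library left out only without G2-S4 library 3, and reached an adjusted p of 0.155 without G2-S3 library 1. Its leading unigene, Cluster-14027.212365 (1269 bp), had 14.9, 17.4 and 17.1 FPKM in G2-CK, 23.2, 21.7 and 20.6 FPKM in G2-S3 and 28.3, 30.9 and 26.8 FPKM in G2-S4, and was higher in G2-S4 by 0.94 (adjusted p = 0.000208). Cluster-14027.259210 (1057 bp) was listed in 1 control library at 0.94 FPKM, and had 4.10, 4.94 and 1.89 FPKM in G2-S3 and 3.11, 2.90 and 4.03 FPKM in G2-S4 (adjusted p = 0.00876 and 0.00176), the former call being lost without control library 2 (adjusted p = 0.0565) and both with missing values at 0 (adjusted p = 0.143 and 0.0578). Of the 15 tested ALMT9 unigenes 5 were higher and none was lower in G2-S4 than in G2-CK.

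ALMT6, a malate channel of the guard cell tonoplast, was listed only with salt. Its single unigene, Cluster-14027.66500 (3401 bp), had a Swiss-Prot match with an E-value of 8.0e-11. This was the weakest match among the ALMT unigenes, so that the name is less firm than the others. The unigene was unlisted in the 3 control libraries, and had 1.02, 1.21 and 0.55 FPKM in G2-S3 and 0.62, 1.05 and 1.13 FPKM in G2-S4. Against the listing limit of 0.3 FPKM its mean was at least 3.09-fold higher in G2-S3 and at least 3.11-fold higher in G2-S4. In the fit over single unigenes, with missing values at the limit, both were called (adjusted p = 0.0209 and 0.00356). There the severe-dose call was lost when any 1 control library or G2-S3 library 1 or 2 was left out. In the fit over names, with missing values at 0, both doses were called (adjusted p = 0.00174 and 0.000141). These calls were kept in all 9 runs with 1 library left out. ALMT13 (Cluster-14027.16074, 624 bp) stayed between 0 and 1.97 CPM in all libraries and was not called in any comparison. ALMT5 (Cluster-14027.212363, 262 bp) had too few reads to be tested.

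Among the CLC proteins, CLC-c, which stores chloride in the vacuole and contributes to salt tolerance, was by far the most abundant, and its gain of 158 CPM from G2-CK to G2-S4 exceeded that of its whole class. It had 137, 139 and 154 CPM in G2-CK, 187, 193 and 183 CPM in G2-S3 and 298, 326 and 279 CPM in G2-S4. Each group lay entirely above the one before. The increase was 1.07 ± 0.08 on the log2 scale in G2-S4 (adjusted p = 1.62e-05) and 0.68 from G2-S3 to G2-S4 (adjusted p = 0.000379). In G2-S3 the increase of 0.39 ± 0.08 (adjusted p = 0.0144) held in size but lost its call without control library 1 (0.33, adjusted p = 0.0554) or 2 (0.36, adjusted p = 0.068) or G2-S3 library 1 (0.37, adjusted p = 0.0612) or 2 (0.35, adjusted p = 0.061). Of its 20 tested unigenes 13 were higher and none was lower in G2-S4 than in G2-CK, and 4 were higher in G2-S3. Cluster-14027.152780 (792 bp), which held 19.6%, 21.6% and 22.4% of the CLC-c reads in the 3 groups, had 48.8, 57.0 and 61.9 FPKM in G2-CK, 70.0, 80.5 and 83.9 FPKM in G2-S3 and 125, 145 and 121 FPKM in G2-S4. Its groups were separate, with an increase of 1.35 in G2-S4 (adjusted p = 3.88e-05). A domain of the class was annotated in 12 of the 22 CLC-c unigenes, but not in Cluster-14027.152780 or in Cluster-14027.141724, described below. Cluster-14027.158059 (2195 bp), named here after its values were seen, carried the domain. It held 23.4%, 24.8% and 25.2% of the CLC-c reads in the 3 groups. Its level was 17.2, 17.4 and 18.7 FPKM in G2-CK, 24.4, 24.3 and 24.1 FPKM in G2-S3 and 38.2, 43.8 and 34.9 FPKM in G2-S4. An exception to the stepwise rise was Cluster-14027.141724 (987 bp), which had 1.90, 1.35 and 1.98 FPKM in G2-CK, an unlisted value, 0.54 and 1.06 FPKM in G2-S3, and 3.23, 3.26 and 3.44 FPKM in G2-S4. It was higher in G2-S4 than in G2-S3 (2.49, adjusted p = 0.00164), while its increase over G2-CK (1.07, adjusted p = 0.0334) was lost when any 1 library of G2-CK or G2-S4 was left out (adjusted p from 0.063 to 0.118).

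CLC-a, the nitrate/proton exchanger that fills the vacuole with nitrate, went in the opposite direction. It had 35.8, 25.6 and 33.2 CPM in G2-CK, 22.9, 21.9 and 29.0 CPM in G2-S3 and 15.6, 12.1 and 16.7 CPM in G2-S4. The first pair of groups overlapped, and the G2-S4 libraries lay under both. CLC-a was 2.13-fold lower in G2-S4 than in G2-CK (log2 fold change −1.09 ± 0.17, adjusted p = 0.000764) and lower than in G2-S3 (−0.74, adjusted p = 0.0106), while the severe dose gave −0.36 with an adjusted p of 0.178. Of its 5 unigenes 4 were lower in G2-S4, among them Cluster-14027.220724 (2571 bp) with 5.46, 3.63 and 4.80 FPKM in G2-CK, 3.20, 2.39 and 2.85 FPKM in G2-S3 and 1.77, 1.88 and 1.46 FPKM in G2-S4 (−1.31, adjusted p = 0.000708) and Cluster-14027.195307 (−1.39, adjusted p = 0.00254). The exception was its most abundant unigene over all libraries, Cluster-14027.73611, which was not called and whose share of the CLC-a reads was 25.4% in G2-CK, 37.8% in G2-S3 and 37.0% in G2-S4.

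The remaining CLC proteins moved little. CLC-d, of the trans-Golgi network, had 58.6, 62.1 and 61.8 CPM in G2-CK, 64.9, 63.3 and 64.2 CPM in G2-S3 and 72.7, 74.9 and 78.4 CPM in G2-S4, a small increase in G2-S4 with no overlap (0.31 ± 0.06, adjusted p = 0.00271). Between the doses it rose by 0.23 (adjusted p = 0.0178), a call lost without G2-S4 library 2 (adjusted p = 0.052). Its leading unigene, Cluster-14027.185387, was not called in G2-S4 against G2-CK (0.35, adjusted p = 0.0513). CLC-f, of Golgi membranes, lay between 46.3 and 57.4 CPM and CLC-e, of the chloroplast thylakoid, between 34.9 and 45.3 CPM in all 9 libraries. Neither they nor their leading unigenes, Cluster-14027.187696 and Cluster-14027.125509, were called in any comparison, and the 95% confidence intervals of G2-S4 against G2-CK ran from −0.19 to 0.14 for CLC-f and from −0.20 to 0.23 for CLC-e on the log2 scale.

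CCC1, the cotransporter of chloride with potassium and sodium, declined with salt. It held the whole CCC class, with G2-CK between 45.0 and 47.8 CPM, G2-S3 between 33.9 and 42.0 CPM and G2-S4 between 33.0 and 34.5 CPM. The decrease in G2-S4 was −0.48 ± 0.09 (adjusted p = 0.00163). That in G2-S3 was −0.32 ± 0.09 (adjusted p = 0.0373) and was kept only without G2-S3 library 3, G2-S4 library 2 or G2-S4 library 3, with an adjusted p of up to 0.0996 without G2-S3 library 1, and was lost with only these groups fitted (adjusted p = 0.0772). Its most abundant unigene, Cluster-14027.206215 (3958 bp), had 4.65, 4.14 and 4.50 FPKM in G2-CK, 2.98, 3.31 and 3.79 FPKM in G2-S3 and 2.22, 2.44 and 2.29 FPKM in G2-S4. Its groups were separate at every step, and the change to G2-S4 was called (−0.79, adjusted p = 0.000926). The share of the CCC1 reads on this unigene was 34.3% in G2-CK and 25.95% in G2-S4, whereas that of Cluster-14027.206227, named here after its values were seen, was 18.8% and 32.1%.

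**Figure D4:**
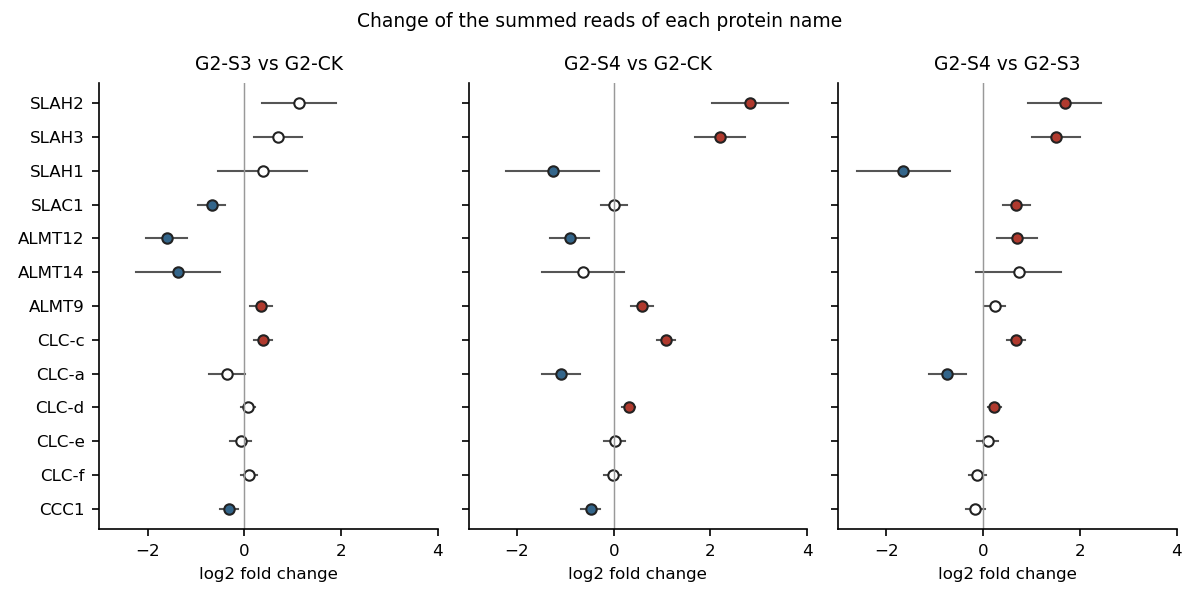
Log2 fold change of 13 protein names in the 3 comparisons, with 95% confidence intervals from the edgeR fit over all names and filled symbols for called changes (red higher, blue lower). ALMT6 (9.15 in G2-S4 against G2-CK, with no control listed) and ALMT13 (2.79, not called) are not drawn. Among the names drawn, SLAH2 and SLAH3 stand farthest to the right in G2-S4 against G2-CK, at 2.82 and 2.20. ALMT12 stands farthest to the left in G2-S3 against G2-CK, at −1.61.

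Per length, and summed over the unigenes of at least 300 bp of each name, CLC-c stood above all other names in every group, at 175 ± 13.7 FPKM (SD, n = 3) in G2-CK, 223 ± 5.15 FPKM in G2-S3 and 357 ± 23.5 FPKM in G2-S4. In G2-CK it was followed by ALMT9 (48.1 ± 4.77 FPKM), SLAH3 (32.2 ± 8.81 FPKM), CLC-d (27.8 ± 1.83 FPKM), CLC-f (24.8 ± 1.12 FPKM) and SLAH2 (23.0 ± 9.87 FPKM), and from SLAH3 to SLAH2 neighbours in this order lay within the SD of the S-type sums. ALMT12, CLC-a, CLC-e and SLAC1 came next and close together, at 15.7, 15.2, 14.99 and 14.4 FPKM. In G2-S4 the order below CLC-c was SLAH2 (134 ± 46.6 FPKM) and SLAH3 (103 ± 21.1 FPKM), which did not differ beyond their spread, and then ALMT9 (68.3 ± 7.35 FPKM). A gene split into several fragments counts once for each fragment in such a sum, so that the order of names with many short unigenes is less firm than that of the changes.

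**Figure D5:**
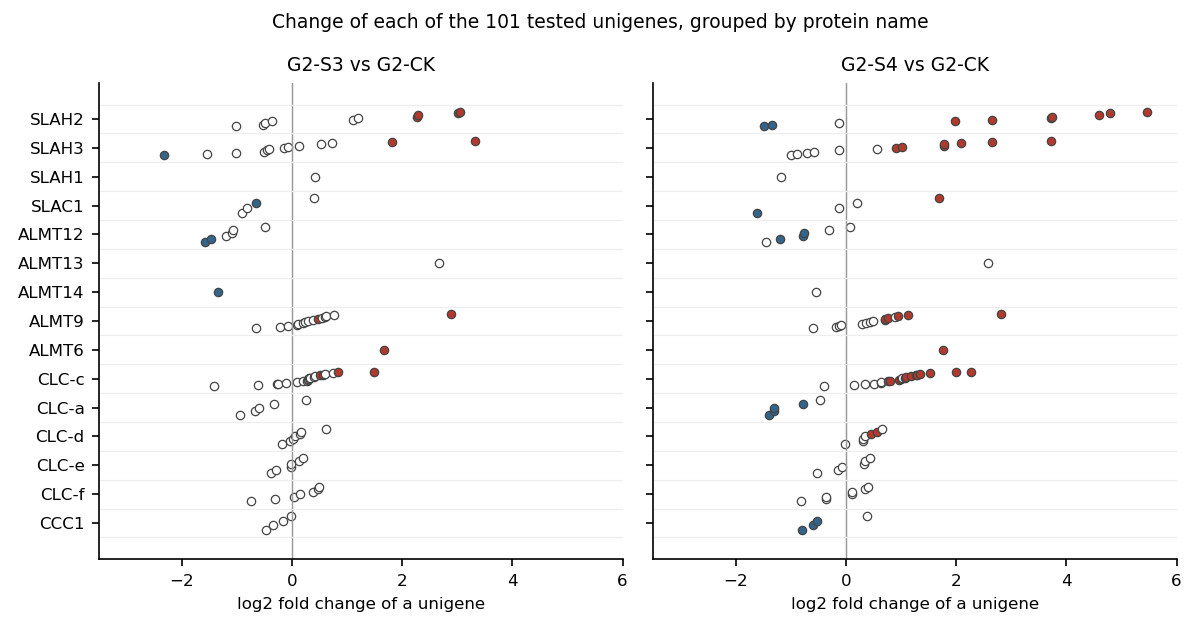
Log2 fold change of each of the 101 tested unigenes, grouped by protein name, in G2-S3 and in G2-S4 against G2-CK, coloured by the call of the edgeR fit over all unigenes. At the extreme dose 36 unigenes were called higher and 13 lower, and CLC-a, CCC1 and ALMT12 hold unigenes called lower and none called higher.

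Other genes of the pathways that act on these channels were counted with the same test. Over all tested unigenes, 14.2% were called higher and 13.8% lower in G2-S4 against G2-CK, and 3.4% and 2.32% in G2-S3. ABA receptors had 4 of 16 tested unigenes higher and 3 lower in G2-S4 against G2-CK (median log2 fold change 0.12), and 2 higher and 4 lower in G2-S3. PYL8, a receptor of this family, was higher at both doses, at 194 CPM in G2-CK, 350 CPM in G2-S3 and 342 CPM in G2-S4 (adjusted p = 0.00174 and 0.000178), whereas PYL5 was lower at both (−2.21, adjusted p = 0.04996, and −3.35, adjusted p = 0.0038) and PYL4 was lower in G2-S3 (−0.81, adjusted p = 0.0224). Kinases known to act on guard cell anion channels (SAPK and SRK2, which are SnRK2 kinases of rice and Arabidopsis, and HT1) had 30 of 123 tested unigenes higher and 10 lower in G2-S4 (median 0.17), and 10 higher and 4 lower in G2-S3. Their 30 of 123 compares with the 14.2% called higher over all unigenes, and SAPK10, a rice SnRK2 kinase, showed the increase at both doses, from 79.4 CPM through 117 CPM to 167 CPM (0.56, adjusted p = 0.0104, and 1.07, adjusted p = 5.63e-05). SAPK1 shared the course of SLAC1 between the doses, lower in G2-S3 (−0.65, adjusted p = 0.018) and higher in G2-S4 than in G2-S3 (1.36, adjusted p = 0.000227), but in contrast to SLAC1 it was also higher in G2-S4 than in G2-CK (0.71, adjusted p = 0.00262). HT1, a kinase that keeps stomata from closing, lay at 397, 372 and 381 CPM and was not called. WNK kinases, of which animal members control CCC cotransporters, had 10 of 53 tested unigenes higher and 11 lower in G2-S4 (median 0.06), with WNK8 higher (1.26, adjusted p = 0.000167) and WNK1 lower (−0.85, adjusted p = 0.000191). The list around STOP1, the factor that switches on malate transporter genes under aluminium and low pH, had 1 of 8 tested unigenes higher and none lower in G2-S4. Calls of the names in these lists, and in those below, are given for all 9 libraries only. At the severe dose such calls depended on single libraries. Over all names the 1136 higher and 749 lower in G2-S3 fell to 396 and 200 without control library 2.

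Other routes for anions (porins, mechanosensitive channels, bestrophins and the tonoplast dicarboxylate transporter, which loads malate into the vacuole) had 25 of 83 tested unigenes higher and 6 lower in G2-S4 against G2-CK (median 0.31), and 7 higher and 1 lower in G2-S3. The shares over all unigenes were 14.2% higher and 13.8% lower in G2-S4, and 3.4% and 2.32% in G2-S3. The tonoplast dicarboxylate transporter had by far the greatest change of the list in summed reads, from 21.2 ± 7.62 CPM (SD, n = 3) in G2-CK to 120 ± 38.1 CPM in G2-S3 (2.50, adjusted p = 0.00277) and 752 ± 171 CPM in G2-S4 (5.15, adjusted p = 1.33e-05). In G2-S4 this transporter alone thus came close to the 909 CPM of the 119 anion channel unigenes together.

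Because the names SLAC1, ALMT12 and ALMT6 stand for guard cell channels of Arabidopsis, markers of that cell type are given beside them. KAT1 had 30.4 ± 5.24 CPM in G2-CK, 73.2 ± 25.4 CPM in G2-S3 and 141 ± 8.55 CPM in G2-S4 (1.27, adjusted p = 0.0106, and 2.22, adjusted p = 0.000102). KAT1 was therefore higher at both doses, and its relation to the channels was not tested. FAMA, the factor that completes guard cell differentiation, lay at 15.5, 17.6 and 20.1 CPM and was not called, and KAT2 lay at 7.69, 4.26 and 7.86 CPM and was not called either. EPFL9, a peptide that promotes stomata formation but need not be made by guard cells themselves, was lower in G2-S4 (−1.77, adjusted p = 0.00464). Of the 35 tested unigenes that mark senescing leaves, 19 were higher and 4 lower in G2-S4 than in G2-CK (median log2 fold change 0.83), with STAY-GREEN (1.98, adjusted p = 0.000703) and SAG12 (0.83, adjusted p = 0.000806) among the higher names, while in G2-S3 none was higher and 4 were lower. The protease SAG39, by far the most abundant of them, was lower in G2-S4 (−2.99, adjusted p = 4.5e-06), so that the summed level was 2990 to 3704 CPM in G2-CK and 1253 to 1732 CPM in G2-S4. Beside these counts, 14.2% of all tested unigenes were called higher and 13.8% lower in G2-S4, and 3.4% and 2.32% in G2-S3. Root markers, in 21 of 25 unigenes the broadly expressed ROOT HAIR DEFECTIVE 3, stayed between 150 and 178 CPM.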

How the data were processed

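Total RNA of leaves was poly-A selected and sequenced as paired ends, reads were called with CASAVA 1.8, assembled with Trinity, clustered with Corset and annotated against Swiss-Prot. RSEM estimates were deposited by the authors in the form of expected counts and of FPKM, with unigenes at or under 0.3 FPKM left out. The authors' own DESeq comparisons (fold changes and p-values) were not used. Expected counts were rounded, and missing values were set to their upper limit in reads for single unigenes and to 0 in sums. Fits used edgeR 4.0.16 (TMM factors 0.940 to 1.059, filterByExpr with a minimum count of 10, quasi-likelihood F-test, two-sided) on group means of all 9 libraries, in R 4.3.3, with limma 3.58.1, and p-values were adjusted over all 127554 unigenes or 12239 protein names at 0.05 with no fold limit. The same fits were also run on simulated counts with known changes, and the outcome is not given here. CPM are of summed counts and TMM-scaled; unigenes under 300 bp have inflated FPKM and were kept out of FPKM sums. Listed reads made up 98.96% to 99.06% of 23.01 to 25.69 M fitted reads (1 M is 1000000 reads) per library, a depth that leaves unigenes near 10 reads with wide errors.

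Named are, for each protein name, the unigene with the highest mean FPKM if at least 1, in each comparison up to 5 called members per direction with the largest change and a mean of at least 1 FPKM, and others in small counts where said; of the unigenes under this rule those the text turns on are given in full. The members and lists were chosen with earlier results of these data known. Alternatives were missing values at 0, at 0.5 of the limit or at the limit, RLE factors, no filter, DESeq2 1.42.0, only the groups compared, a replicate block, members with a class domain only, and leaving out each library. No 2 libraries were alike: at least 95.9% of unigenes listed in both had different counts.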

Additional observations from a re-analysis of the deposited data

How the results depend on the processing

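No change of direction occurred in any called result under the alternatives tried. Among the counts of members called in G2-S3 against G2-CK, the 13 higher became 7 with missing values at 0 and 5 without a filter. They became 3 to 13 when 1 library was left out. The 5 lower became 9 under DESeq2, 2 with missing values at 0, 2 without a filter and 3 under the replicate block. They became 2 to 8 when 1 library was left out. Over all unigenes, the 4342 higher became 2442 with missing values at 0 and 1754 without a filter. Leaving out 1 library gave 1259 to 6848. The 2961 lower became 3751 under DESeq2, 1143 with missing values at 0, 1194 without a filter and 1804 under the replicate block. Leaving out 1 library gave 923 to 4381. In G2-S4 against G2-CK the 36 higher stayed between 31 and 38, with 31 to 37 when 1 library was left out. The 13 lower became 7 without a filter and 7 to 15 when 1 library was left out. Over all unigenes the 18123 higher lay between 13895 and 19822 under the alternatives. The 17602 lower became 12884 without a filter and 13056 to 18959 when 1 library was left out. In G2-S4 against G2-S3 the 25 higher became 18 to 24 and the 3 lower 0 to 3 when 1 library was left out. The latter became 0 without a filter and 1 both with only these groups and under the replicate block. Over all unigenes the 9231 higher became 6121 to 8903 and the 8759 lower 5250 to 8045 when 1 library was left out. The latter became 5232 without a filter, 7198 with only these groups and 6976 under the replicate block. The pots stood in randomized blocks, and the labels do not say whether replicate numbers stand for blocks. Deviations of same-numbered libraries correlated at −0.11 to 0.04 over 9 pairs and those of others at −0.06 to 0.09 over 18 pairs. No pairing by number was visible in these values, but with 3 libraries per group they cannot exclude 1. The block gave 11 higher and 3 lower, 35 and 10, and 21 and 1 in the 3 comparisons. Over all unigenes it gave 2815 higher and 1804 lower, 16454 and 15700, and 7697 and 6976. Among protein names, the block took the adjusted p past 0.05 for ALMT9 (0.0682), ALMT14 (0.0952) and CCC1 (0.0721) in G2-S3 against G2-CK, and for SLAH1 in G2-S4 against G2-CK (0.0639) and against G2-S3 (0.0502). Depth limits the weakest members, since 18 of the 119 unigenes could not be tested and a missing value allows a median of 8.80 reads. Class totals moved by over 1 SD in 6 cases when only members with the domain of their class were summed, where CLC gave 262, 281 and 342 CPM and all classes together 459.8, 504 and 755 CPM in G2-CK, G2-S3 and G2-S4. The cause of these shifts was not tested.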
